A study of Rattus norvegicus with 12 samples.

Results

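Gfap and 8 other genes that reactive astrocytes are known to express were followed through 12 RNA sequencing libraries of rat brain: Vim, Nes, Cd44, Hspb1, S1pr3, Aspg, Steap4 and Emp1. They were taken by name from a table of 34525 genes, and all 9 were found, each in 1 row. The libraries came from 2 regions. The thalamus relays sensory signals to the cortex. The RVM, short for rostral ventral medulla, is part of the brainstem and modulates pain through descending projections. In each region 3 samples were labelled 0.9% NS, taken here as normal saline, and 3 were labelled CFA, letters that in rodent pain studies usually stand for complete Freund's adjuvant, which is injected to cause lasting local inflammation. The series is titled as a study of chronic orofacial pain. The sources used here do not give strain, sex, age, dose, injection site or time, nor whether each sample is its own animal, and p-values therefore cover only sample-to-sample spread, which may be technical.

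Astrocytes are the glial cells that buffer ions, clear transmitters and line blood vessels. When the tissue around them is injured or inflamed they become reactive: they enlarge, build up intermediate filaments made of GFAP, vimentin and, in some states, nestin, and switch on genes for adhesion, chaperone and membrane proteins. Signals of the interleukin 6 family, which act through the receptor chain gp130 and the transcription factor STAT3, are a well-known inducer of Gfap. Gfap is also much higher in astrocytes of white matter and brainstem than in those of much of the forebrain grey matter. Vimentin, CD44 and nestin are made by other cells as well, among them endothelium, meningeal fibroblasts, ependyma and leukocytes.

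The start regions of the genes are shown because STAT3 and heat shock factors are known inducers of some of these genes. RefSeq (build GRCr8) gave the 250 bases before the start of each of the 9 genes. Both strands were searched for 3 motifs: the STAT motif TTCNNNGAA, a pair of heat shock element units GAANNTTC, and the AP-1 motif TGANTCA. Of 33469 rat promoters of that length, 7.67% held the STAT motif, 7.23% the heat shock pair and 6.34% the AP-1 motif. Among the 9 members the STAT motif was found in Steap4 and Emp1, the heat shock pair in Hspb1 and AP-1 in Aspg and Emp1. The 4 windows below are those of Gfap, the leading gene, and of the 3 members with a STAT or heat shock match. They are written 5′ to 3′ on the gene's strand, and capitals mark the matches.
Gfap, chr10:88361662-88361911, minus strand: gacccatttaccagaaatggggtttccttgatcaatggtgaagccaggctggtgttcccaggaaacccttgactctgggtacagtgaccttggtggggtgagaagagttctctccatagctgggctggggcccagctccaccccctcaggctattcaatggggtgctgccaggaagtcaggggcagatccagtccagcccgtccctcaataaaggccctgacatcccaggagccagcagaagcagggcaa
Steap4, chr4:27054770-27055019, minus strand: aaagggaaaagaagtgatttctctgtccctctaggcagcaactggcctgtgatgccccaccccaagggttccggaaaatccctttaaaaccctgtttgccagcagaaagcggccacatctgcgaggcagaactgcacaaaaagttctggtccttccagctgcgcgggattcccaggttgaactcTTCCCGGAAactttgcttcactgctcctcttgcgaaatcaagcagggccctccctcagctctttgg
Emp1, chr4:169943980-169944229, plus strand: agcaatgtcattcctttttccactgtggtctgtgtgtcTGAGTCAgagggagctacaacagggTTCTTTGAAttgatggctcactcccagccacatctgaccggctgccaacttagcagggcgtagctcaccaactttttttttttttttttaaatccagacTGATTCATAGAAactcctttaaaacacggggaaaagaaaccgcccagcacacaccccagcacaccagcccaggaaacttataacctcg
Hspb1, chr12:26432302-26432551, minus strand: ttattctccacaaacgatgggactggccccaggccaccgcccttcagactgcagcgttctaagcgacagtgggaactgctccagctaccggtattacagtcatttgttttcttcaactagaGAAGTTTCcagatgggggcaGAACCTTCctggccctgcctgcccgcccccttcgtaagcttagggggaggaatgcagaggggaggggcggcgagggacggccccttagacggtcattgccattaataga
Counted back from the start, the Steap4 match lies at -66 to -58 and the 2 Hspb1 matches at -129 to -122 and -109 to -102. In Emp1 the STAT matches lie at -187 to -179 and -85 to -77, and the second overlaps an AP-1 match at -88 to -82, so they share letters in the sequence above. A match describes the letters of the window and is not a measured binding site, and no match says only that these letters are not in this window.

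In the authors' table the 9 genes are protein coding and carry these Ensembl identifiers and places, for which the sources used here name no genome build. Gfap is ENSRNOG00000002919 on chromosome 10 (90990762 to 90999506), Vim is ENSRNOG00000018087 on chromosome 17 (80882666 to 80891212) and Nes is ENSRNOG00000018681 on chromosome 2 (187344056 to 187352969). Cd44 is ENSRNOG00000006094 on chromosome 3 (92696313 to 92783658), Hspb1 is ENSRNOG00000023546 on chromosome 12 (23839399 to 23841049) and S1pr3 is ENSRNOG00000014524 on chromosome 17 (13799383 to 13812704). Aspg is ENSRNOG00000012843 on chromosome 6 (136682126 to 136701628), Steap4 is ENSRNOG00000008602 on chromosome 4 (23090029 to 23135354) and Emp1 is ENSRNOG00000008676 on chromosome 4 (169147243 to 169181966). Values are given per gene, so exons, introns and untranslated regions were not told apart.

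Libraries held 14.94 to 19.24 M reads. Levels are in FPKM, a unit that corrects for library size and for the length of the gene, so levels of different genes can be set side by side. Sums of regional markers followed the labels. The 8 hindbrain genes, of which Hoxa5 was at 0 in all libraries, summed to 119 to 157 FPKM in RVM and to at most 1.18 FPKM in thalamus. The 5 thalamic markers summed to 72.5 to 522 FPKM in thalamus and 10.6 to 17.1 FPKM in RVM. Among them the transcription factor Tcf7l2 was at 28.9 to 130 FPKM in thalamus and at most 2.10 FPKM in RVM. Rora overlapped between regions, at 1.56 to 7.08 FPKM in thalamus and 1.39 to 2.34 FPKM in RVM. Some libraries stood apart. Thalamus CFA libraries 1 and 2 held choroid plexus transcripts (6 of 6 markers measured, summed level 10236 and 2455 FPKM, against 14.2 FPKM in CFA library 3 and 4.50 to 27.8 FPKM in saline). Thalamus CFA library 1 was also the lowest of its group in the 5 thalamic markers (72.5 FPKM, against 245 and 313 FPKM) and saline library 1 the lowest of its own (226 FPKM, against 468 and 522 FPKM). Markers of neighbouring cortex (4 of 4) were highest in the same 2 libraries, at 249 FPKM in CFA library 1 against 28.6 and 23.3 FPKM, and at 116 FPKM in saline library 1 against 26.2 and 59.1 FPKM. RVM CFA library 2 had microglial markers at 98.3 FPKM (5 of 5 measured), against 198 and 244 FPKM in the other RVM CFA libraries and 75.0 to 85.5 FPKM in RVM saline.

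The first comparison set CFA against saline within the thalamus. Of the 9, 5 rose: Gfap, Vim, Cd44, Hspb1 and Steap4, by limma on log2(FPKM + 1) with Benjamini-Hochberg adjustment over 14722 genes and a threshold of 0.05. S1pr3 and Emp1 were tested and did not pass, and Nes and Aspg stayed below the filter of a mean of 1 FPKM over the 6 libraries and were not tested. As background, 3.84% of all genes tested were called higher and 0.272% lower. In bulk tissue, more cells of a type and more RNA per cell cannot be told apart.

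Among the filament genes, Gfap, which encodes the main intermediate filament of astrocytes, was at 155, 79.3 and 137 FPKM in saline libraries 1, 2 and 3 and at 936, 455 and 364 FPKM in CFA libraries 1, 2 and 3. The CFA libraries were all above the saline libraries, and CFA library 1 stood highest by a wide margin. The means differed 4.72-fold (124 ± 39.7 against 585 ± 307 FPKM, SD, n = 3 each), and limma gave a log2 change of 2.16 ± 0.41 (SE, adjusted p = 0.0405). Vim, which encodes vimentin, the filament partner of GFAP in reactive astrocytes, was at 64.2, 25.5 and 33.8 FPKM in saline and at 319, 165 and 163 FPKM in CFA. Again no saline library reached a CFA library, and library 1 was the highest in each group. Its log2 change was 2.39 ± 0.40 (adjusted p = 0.0264), from a mean of 41.2 ± 20.4 to 216 ± 89.5 FPKM. Nes, the gene of nestin, a filament of progenitors that some reactive astrocytes express again, was low throughout, at 0.289, 0.399 and 0.417 FPKM in saline and 0.943, 0.280 and 0.287 FPKM in CFA. Only CFA library 1 was above the saline range, with 109 reads against 29 in each of the other CFA libraries and 35 to 42 in saline.

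Among the adhesion, chaperone and receptor genes, Cd44, the cell-surface receptor for the matrix polymer hyaluronan, was at 2.57, 0.894 and 1.05 FPKM in saline and at 11.3, 6.87 and 7.71 FPKM in CFA. The ranges were apart, and the log2 change was 1.98 ± 0.29 (adjusted p = 0.0157). Hspb1 encodes a small heat shock protein that acts as a chaperone and binds filaments. It was at 11.4, 7.16 and 5.36 FPKM in saline and at 79.7, 34.7 and 29.8 FPKM in CFA, a 6.03-fold difference of means (log2 2.37 ± 0.41, adjusted p = 0.0310). S1pr3, a receptor for the lipid signal sphingosine 1-phosphate, was the steadiest member in saline, at 4.52, 4.62 and 4.38 FPKM. In CFA it was at 16.5, 13.5 and 6.60 FPKM, so that all CFA libraries were above saline, with library 3 well below the other two. Its log2 change of 1.18 ± 0.30 did not pass (adjusted p = 0.105).

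Of the enzyme and membrane protein genes, Steap4, which encodes a metalloreductase of iron and copper, had the largest log2 change and the least spread in CFA. It was at 0.429, 0.404 and 0.320 FPKM in saline (18 to 29 reads) and at 5.88, 8.34 and 7.23 FPKM in CFA (379 to 481 reads). This was the only member that was not highest in CFA library 1, where it was lowest of its group. The log2 change was 2.55 ± 0.16 (adjusted p = 0.000760), and it was 3.896 with a pseudocount of 0.1 in place of 1 and 4.35 by limma-voom on the recovered reads. Steap4 passed the filter only through its CFA libraries, so it had to differ in order to be tested. Aspg, listed as asparaginase, was at 0.0764, 0.142 and 0.115 FPKM in saline (4 to 6 reads) and at 3.80, 0.805 and 0.892 FPKM in CFA (190, 36 and 39 reads). Every CFA library was above every saline library, and library 1 alone accounted for most of the CFA mean of 1.83 FPKM. Emp1, a membrane protein of the PMP22 family, was at 1.88, 0.889 and 1.85 FPKM in saline and at 8.22, 2.60 and 3.05 FPKM in CFA. Its groups did not overlap, but the log2 change of 1.04 ± 0.39 did not pass (adjusted p = 0.208), and by limma-voom on the recovered reads it was 1.64 (adjusted p = 0.236). In all, the CFA libraries were above all saline libraries for the 7 tested members and for Aspg, against 12.2% of all genes tested.

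**Figure D1:**
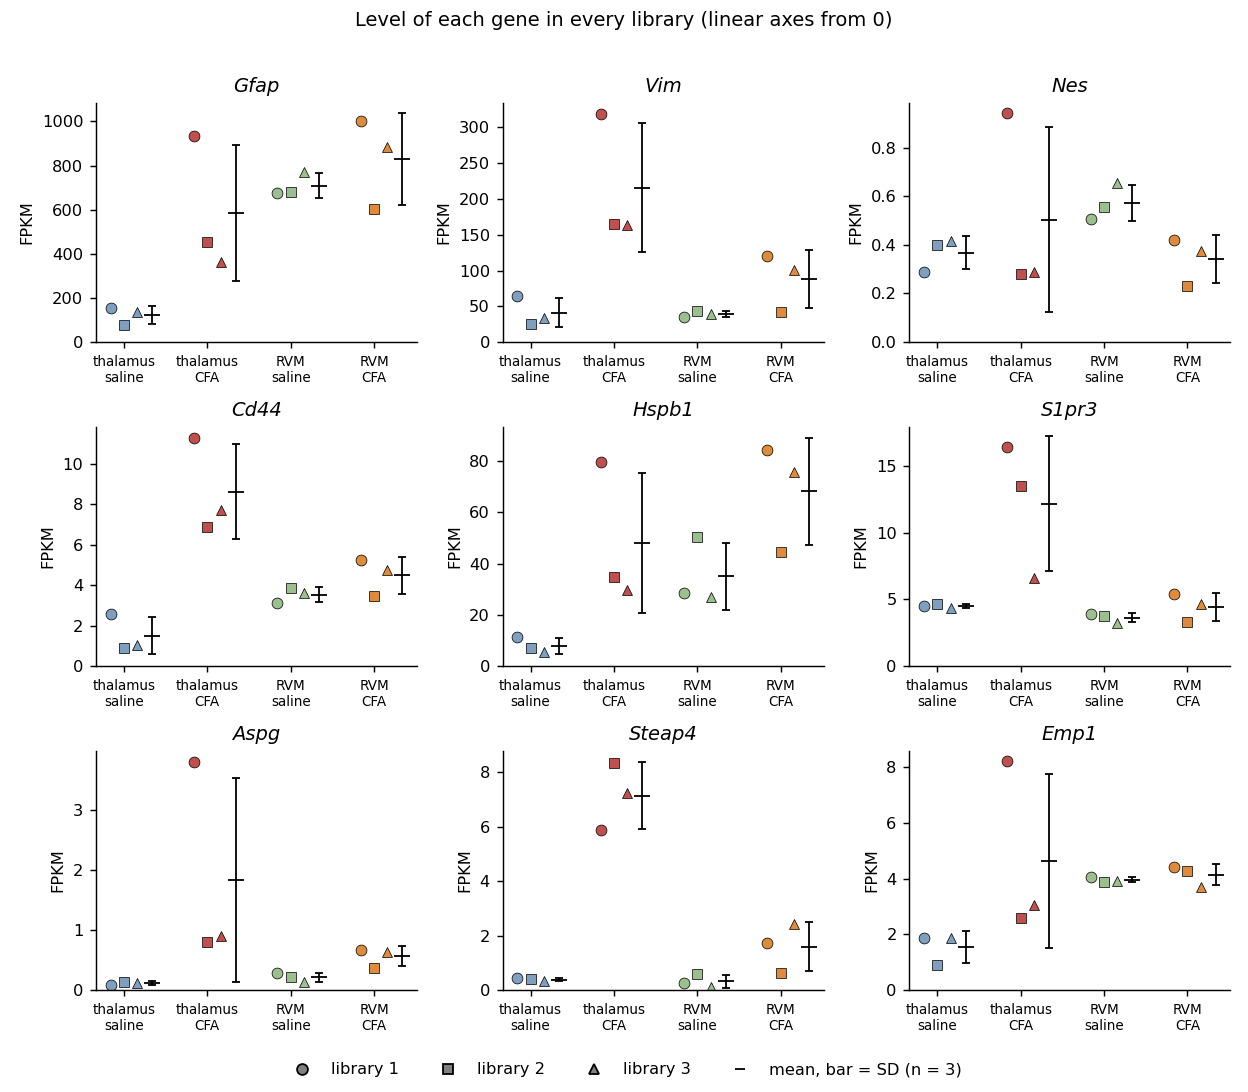
FPKM of each of the 9 genes (linear y axes from 0) in the 12 libraries by group, with circles, squares and triangles for libraries 1, 2 and 3 and bars for the mean and SD of 3 libraries. In thalamus CFA, library 1 is the highest for every gene but Steap4, and in RVM CFA, library 2 is the lowest for every gene but Emp1.

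Marker sums of several other cell types also differed in the same libraries. In thalamus the 5 of 5 microglial markers measured summed to 71.7 to 80.2 FPKM in saline and 188 to 218 FPKM in CFA. Cx3cr1, P2ry12, Aif1 and Csf1r were above all saline libraries in every CFA library. Tmem119 overlapped between the groups, and in CFA library 1 (11.71 FPKM) it was below all saline libraries. The 5 of 6 leukocyte markers measured summed to 22.6 to 38.1 FPKM in saline and 566 to 635 FPKM in CFA. Most of that sum was Lyz2 (533.8 to 620.5 FPKM in CFA). Ptprc, S100a8, S100a9 and Cd3e were also above all saline libraries in every CFA library. Meningeal and fibroblast markers (6 of 6) summed to 10.8 to 28.7 FPKM in saline and to 179, 32.5 and 69.2 FPKM in CFA libraries 1, 2 and 3. Ependymal markers (4 of 5) summed to 18.7 to 56.7 FPKM in saline and 45.3 to 73.6 FPKM in CFA, but they did not move alike. Rarres2 was at 7.63 to 13.4 FPKM in saline and at 48.8, 21.4 and 20.2 FPKM in CFA libraries 1, 2 and 3. Ccdc153, Tmem212 and Dynlrb2 overlapped between the groups, and in CFA library 1 each was within its saline range. The 4 of 5 endothelial markers measured summed to 37.2 to 39.1 FPKM in saline and 36.1 to 40.8 FPKM in CFA, with Cldn5 listed at 0 in all libraries. Neuronal markers (5 of 5) summed to 1068 to 1545 FPKM in saline and to 715, 1002 and 1096 FPKM in CFA libraries 1, 2 and 3. They did not move alike either. Syt1 and Stmn2 were lower in every CFA library, and Snap25 and Slc17a6 overlapped between the groups. Rbfox3 was above all saline libraries in CFA library 1 (45.8 FPKM) and below them in libraries 2 and 3 (33.7 and 32.9 FPKM). No other marker of these lists, choroid plexus included, was at 0 in all libraries of a thalamus group. The choroid plexus markers of CFA library 3 summed to 14.2 FPKM, within the saline range. Of these markers, Folr1 (4.69 FPKM), Kl (0.486 FPKM) and Kcnj13 (0.623 FPKM) were above all saline libraries. Ttr, Clic6 and Aqp1 were within their saline ranges. In CFA library 3 Gfap was at 364 FPKM, Vim at 163 FPKM and Steap4 at 7.23 FPKM, each above all saline libraries. In that library the microglial, leukocyte and meningeal sums (188, 566 and 69.2 FPKM) were above all saline libraries too. The part of these cells, of choroid plexus, and of the cortical and thalamic tissue in each library, in the levels of Vim, Cd44 and the other members was not tested.

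The calls rested on all 6 libraries to different degrees. Leaving out each library in turn gave 6 fits, and Steap4 kept its call in all of them, with log2 changes of 2.44 to 2.66. Gfap lost its call in every one, with log2 changes of 1.76 to 2.44 and adjusted p-values up to 0.131. Vim kept its call in 1 of the 6 fits (without saline library 1), Cd44 in 2 (without saline library 1 or CFA library 2) and Hspb1 in 3 (without saline library 1, CFA library 1 or CFA library 3). S1pr3 gained a call without CFA library 3 (log2 1.53, adjusted p = 0.00778). The count of members called, 5 with all libraries, was 4 without saline library 1, 1 without saline library 2 or without saline library 3, 2 without CFA library 1 or without CFA library 2, and 3 without CFA library 3. Without CFA libraries 1 and 2 together, which leaves 1 CFA library and takes the spread from saline alone, none passed. The log2 changes were then 1.60 for Gfap, 2.07 for Vim, 1.86 for Cd44, 1.84 for Hspb1 and 2.57 for Steap4, and S1pr3 came to 0.46.

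**Figure D2:**
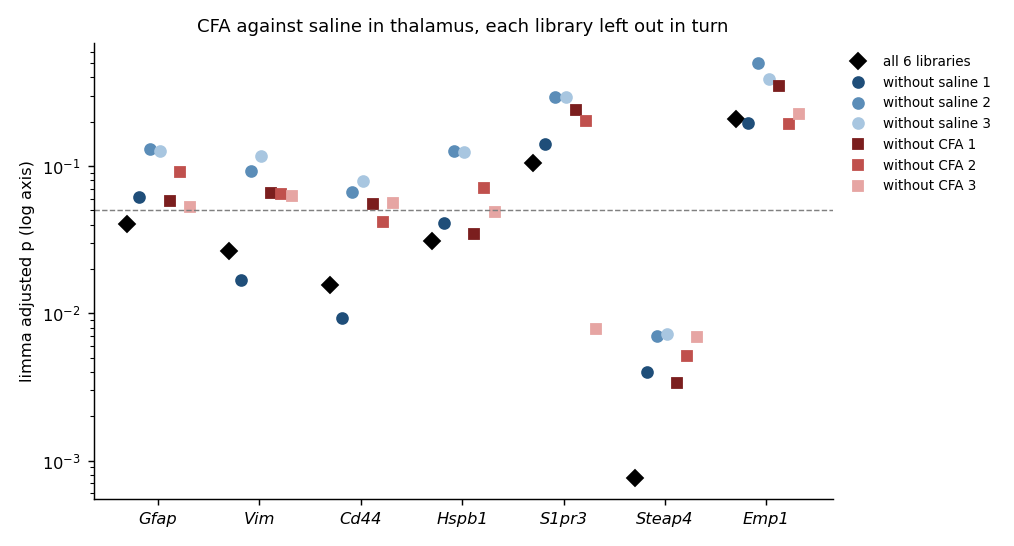
Adjusted p by limma (log y axis) for CFA against saline in thalamus for the 7 tested genes, with all 6 libraries (diamonds) and with each library left out in turn (circles for saline, squares for CFA), and a dashed line at 0.05. Steap4 lies below the line in every fit, and Gfap lies below it only with all 6 libraries.

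The same comparison in the RVM gave smaller differences, and no member passed. None of 14289 genes was called there (0%) by limma, nor by limma-voom on the recovered reads, whereas 2030 had an unadjusted p below 0.05. Of the 6 members tested, Vim and Hspb1 had an unadjusted p below 0.05. Nes, Aspg and Steap4 were below the filter and were not tested.

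Gfap was already high in RVM saline, at 674, 679 and 773 FPKM, and was at 1004, 602 and 884 FPKM in CFA. CFA library 2 was below the lowest saline library, and libraries 1 and 3 above the highest. The log2 change was 0.20 ± 0.18 (adjusted p = 0.684). Vim was at 35.4, 43.4 and 39.3 FPKM in saline and at 120, 42.6 and 101 FPKM in CFA, with CFA library 2 inside the saline range (log2 1.01 ± 0.36, adjusted p = 0.293). Hspb1 was at 28.4, 50.2 and 26.8 FPKM in saline and at 84.4, 44.5 and 75.7 FPKM in CFA, again with library 2 inside the saline range (log2 0.94 ± 0.31, adjusted p = 0.273). Cd44 was at 3.12, 3.84 and 3.63 FPKM in saline and at 5.25, 3.47 and 4.74 FPKM in CFA, with a log2 change of 0.26 ± 0.15 (adjusted p = 0.462). S1pr3 (3.25 to 3.89 FPKM in saline, 3.29 to 5.37 FPKM in CFA) and Emp1 (3.88 to 4.05 FPKM and 3.70 to 4.43 FPKM) overlapped between groups, with adjusted p-values of 0.585 and 0.844.

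Steap4 was at 0.273, 0.591 and 0.124 FPKM in RVM saline (7 to 28 reads) and at 1.73, 0.641 and 2.42 FPKM in CFA (106, 40 and 137 reads). Aspg was at 0.282, 0.218 and 0.138 FPKM in saline (6 to 12 reads) and at 0.674, 0.372 and 0.639 FPKM in CFA (18 to 32 reads). For both genes every CFA library was above every saline library, and library 2 was the lowest of the CFA libraries. Nes went the other way, from 0.507, 0.554 and 0.655 FPKM in saline to 0.419, 0.233 and 0.375 FPKM in CFA, with all CFA libraries below all saline libraries. The share of all genes with CFA libraries below all saline libraries was not counted, and 43.9% of the genes tested had a positive log2 change. No tested member had CFA libraries above all saline libraries, against 7.27% of all genes tested.

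CFA library 2 was the lowest of the RVM CFA libraries for 8 of the 9 members and was within or below the saline range for 6 of them, whereas libraries 1 and 3 were above that range for 8 and 7. The same counts were not made over all genes, so they are not shown to be particular to the members. The leukocyte markers of library 2 summed to 57.4 FPKM, against 156 and 184 FPKM in the other CFA libraries and 33.5 to 47.1 FPKM in saline, beside the microglial levels given above. Most of that sum was Lyz2 (50.4 FPKM in library 2, against 143 and 170 FPKM). Ptprc (2.52, against 8.12 and 5.72 FPKM) and Cd3e were lower there too. S100a8 was nearly equal in the 3 libraries (2.17, against 2.35 and 2.23 FPKM), and S100a9 was at 2.27, against 2.10 and 5.69 FPKM. Without it, 484 genes were called in the RVM, 396 higher and 88 lower, and Vim was among them (log2 1.47, adjusted p = 0.00307). Gfap was not called (log2 0.41, adjusted p = 0.0838). Steap4 then passed the filter, only through CFA libraries 1 and 3, so it had to differ in order to be tested, and was called (log2 1.22 ± 0.22, adjusted p = 0.0479). Oligodendrocyte markers (5 of 5) summed to 15612 to 16598 FPKM in the 3 RVM CFA libraries and to 21340 to 24338 FPKM in RVM saline, without overlap, and their part in the levels of the members was not tested. The fit without library 2 sets 2 CFA libraries against 3 saline libraries. Why this library differed was not tested.

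The difference of the CFA effects between regions was tested as an interaction over 12 libraries. None of 13738 genes passed by limma (0%) or by limma-voom, and 1560 had an unadjusted p below 0.05. All 6 members tested had a larger log2 change in thalamus than in RVM and an unadjusted p below 0.05. The difference, thalamus minus RVM, was 1.97 ± 0.49 for Gfap (adjusted p = 0.317), 1.71 ± 0.35 for Cd44 (adjusted p = 0.270), 1.43 ± 0.57 for Hspb1, 1.38 ± 0.59 for Vim, 0.99 ± 0.43 for Emp1 and 0.96 ± 0.37 for S1pr3. The adjusted p-values of the last 4 were 0.393 to 0.431. A larger effect in thalamus was therefore not shown after adjustment. Cd44 passed without thalamus saline library 1 (1.997, adjusted p = 0.0422).

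**Figure D3:**
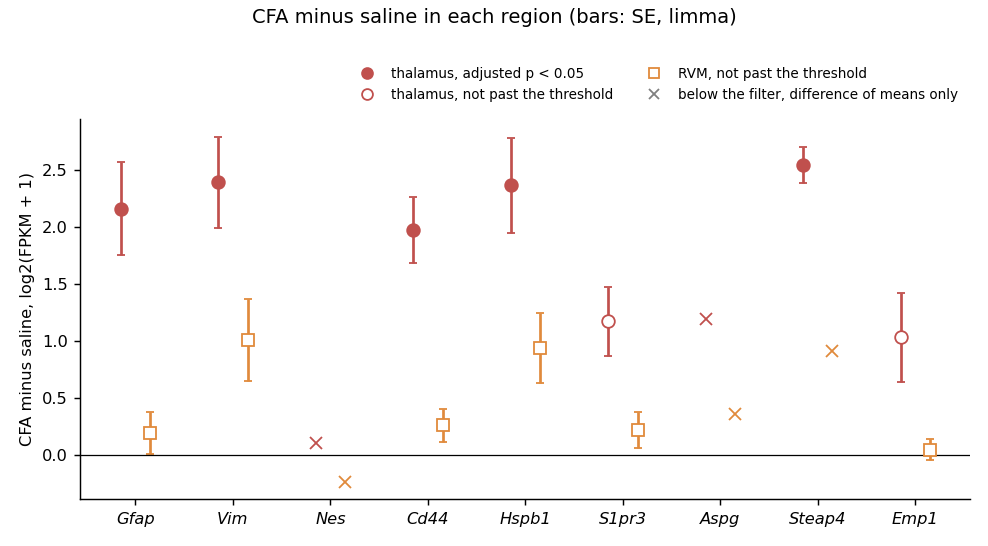
Difference between CFA and saline on the log2(FPKM + 1) scale for each gene in thalamus (circles) and RVM (squares), with SE bars, filled where the limma adjusted p was below 0.05 and crosses for genes below the filter. In thalamus 5 genes pass, and in RVM none does.

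The saline libraries of the 2 regions differed more for some members than for others. Of the 6 members tested, Gfap, Hspb1, Emp1 and Cd44 were higher in RVM, Vim and S1pr3 were not called, and 22.7% of 14396 genes were called higher and 22.6% lower. Gfap differed 5.72-fold (708.6 ± 55.8 FPKM in RVM, log2 2.56 ± 0.24, adjusted p = 0.000496). Hspb1 had a log2 difference of 2.01 ± 0.32 (adjusted p = 0.00303), Emp1 of 0.99 ± 0.19 (adjusted p = 0.00604) and Cd44 of 0.91 ± 0.25 (adjusted p = 0.0251). For these 4 genes all RVM libraries were above all thalamus libraries, as for 29.9% of all genes tested. Cd44 kept its call in 1 of the 6 fits that omitted a library and lost it when libraries were rescaled to the same FPKM total (log2 0.78, adjusted p = 0.0515). S1pr3 was lower in every RVM library (log2 -0.25 ± 0.10, adjusted p = 0.0725) and passed with that rescaling (-0.40, adjusted p = 0.0150). The share of all genes that were lower in every RVM library was not counted. The log2 difference of Vim was 0.04 ± 0.31 (adjusted p = 0.931). It changed sign with the scaling.

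The order of levels was alike in the 4 groups at the top and varied below. Gfap was followed by Vim and Hspb1 in each group, although Vim and Hspb1 overlapped in RVM saline (39.4 ± 4.01 and 35.2 ± 13.1 FPKM) and in RVM CFA (87.9 ± 40.4 and 68.2 ± 21.0 FPKM). Below them, Emp1 and Cd44 were indistinguishable in thalamus saline (1.54 ± 0.565 and 1.504 ± 0.925 FPKM), as were Steap4 and Nes (0.385 ± 0.0571 and 0.369 ± 0.0693 FPKM). Steap4 moved from the seventh place in thalamus saline to the sixth in thalamus CFA, at a level that did not differ beyond the spread from that of Cd44 (7.15 ± 1.23 and 8.62 ± 2.34 FPKM).

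The balance of Gfap and Vim differed between regions, and between treatments in RVM alone. Gfap FPKM divided by Vim FPKM was 2.42, 3.10 and 4.06 in thalamus saline and 2.93, 2.75 and 2.23 in thalamus CFA, ranges that overlap. In RVM saline the ratio was 19.0, 15.6 and 19.7, and in RVM CFA it was 8.35, 14.1 and 8.76, lower in every CFA library than in any saline library. A ratio within a library shows unequal change of the genes and not which of them changed. It was not tested.

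Gfap was also set against 15 general astrocyte genes, among them the water channel gene Aqp4, the glutamate transporter genes Slc1a2 and Slc1a3 and the dehydrogenase gene Aldh1l1. Their mean log2(FPKM + 1) was 6.91 to 6.97 in thalamus saline and 6.71, 6.82 and 7.01 in CFA. None of the 15 passed in thalamus, with a median log2 change of -0.20 beside -0.08 over all genes. The 2 with the smallest p were Sox9, a glial transcription factor (log2 0.68, adjusted p = 0.177), and the gap junction gene Gjb6 (-0.53, adjusted p = 0.290). Gfap minus this mean was 0.32, -0.58 and 0.15 in thalamus saline and 3.17, 2.01 and 1.501 in CFA, all higher than in saline. The difference of 2.26 had an exact two-sided permutation p = 0.1, the smallest that 3 against 3 samples can give. In RVM the same quantity was 2.12, 2.05 and 2.39 in saline and 2.70, 1.96 and 2.59 in CFA (difference 0.23, exact permutation p = 0.4).

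**Figure D4:**
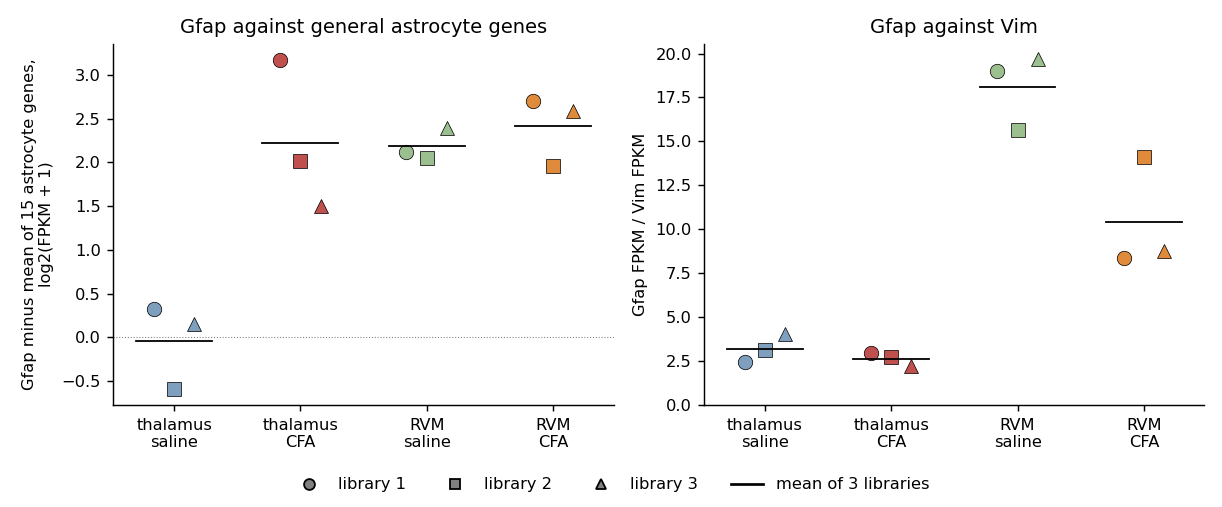
Left, Gfap minus the mean of 15 general astrocyte genes on the log2(FPKM + 1) scale, and right, the ratio of Gfap to Vim FPKM, for the 3 libraries of each group, with lines at the means. The left panel shows thalamus saline at -0.58 to 0.32 and the other groups at 1.501 to 3.17, and the right panel shows both thalamus groups at 2.23 to 4.06 and RVM saline at 15.6 to 19.7.

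Other genes of the reactive state were taken from lists and are given by their counts. The filter favours genes that are high in CFA, so counts of lists with members low in saline lean towards rises. The 6 other pan-reactive astrocyte genes all rose in thalamus, with a median log2 change of 3.26. Of these, 3 reached 1 FPKM over the saline libraries of both regions together. Cxcl10, Osmr and Serpina3n were at 0.352, 0.524 and 0.0024 FPKM in thalamus saline. They were tested only through their CFA libraries, so they had to differ in order to be tested. Examples are Lcn2, the iron-binding lipocalin 2 (1.12 ± 0.58 to 319 ± 53.8 FPKM), and Cp, the ferroxidase ceruloplasmin (2.70 ± 1.21 to 39.9 ± 9.17 FPKM). Timp1, an inhibitor of matrix proteases, rose by a log2 change of 4.12, and Cxcl10, a chemokine induced by interferon, by 3.03 from a saline level of 0.352 FPKM. Of 11 genes described for a neurotoxic (A1) type of reactive astrocyte 7 rose and none fell, with a median of 1.60. The complement gene C3 rose by 4.74, the complement inhibitor gene Serping1 by 4.26, the MHC class I gene RT1-A2 by 3.44 and the immunoproteasome subunit Psmb8 by 2.40. RT1-A2 has close copies that can share reads, and several of these genes are also made by microglia and leukocytes, whose marker sums were higher in the same libraries. Their part was not tested. Of 11 genes of the protective (A2) type besides Emp1, 6 were tested and 2 rose: Cd14, a receptor for bacterial lipopolysaccharide (3.02), and Ptx3, a secreted pentraxin (2.54). Of the 11 genes 2 reached 1 FPKM over the saline libraries of both regions together, and neither Cd14 nor Ptx3 was among them. In thalamus saline Cd14 was at 0.690 FPKM and Ptx3 at 0.121 FPKM, so both were tested only through their CFA libraries. The median of the 6 was 0.89, and in RVM no gene of these lists passed.

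Among 13 other intermediate filament genes none passed in thalamus, with a median of 0.07. The smallest p-values were those of Krt18 (log2 1.12, adjusted p = 0.169) and Lmnb1 (0.45, adjusted p = 0.170), which encode a keratin and a nuclear lamin. The neurofilament genes Nefm and Nefh and the peripherin gene Prph differed by region, with log2 differences of 2.85, 2.62 and 4.16 between RVM and thalamus saline. Of the 10 small heat shock and heat shock genes measured, 7 were tested and none passed in thalamus, with a median of -0.12. Hsph1, an Hsp110 chaperone, had -0.58 and Dnajb1, a co-chaperone of Hsp70, had -0.26. The relatives of S1pr3 gave a median of 0.04 over 7 tested genes, with none past the threshold, among them the receptor gene S1pr2 (0.73, adjusted p = 0.135) and Sgpl1, the lyase that degrades sphingosine 1-phosphate (0.43, adjusted p = 0.0838).

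Of 15 genes for hyaluronan metabolism and CD44 partners, 12 were tested and 2 rose. These were Spp1, which encodes the CD44 ligand osteopontin (9.94 ± 6.36 to 103 ± 50.3 FPKM), and Msn, which encodes moesin, a protein that ties CD44 to actin (8.01 ± 0.85 to 23.2 ± 5.03 FPKM). The median of the 12 was 0.68. Of 18 gp130 and STAT3 signalling genes 15 were tested and 6 rose, with a median of 0.70. Osmr, at 0.524 FPKM in saline and tested only through CFA, was among the 6 and is also in the pan-reactive list. Socs3, a feedback inhibitor induced by STAT3, rose from 1.04 ± 0.20 to 20.1 ± 5.39 FPKM (adjusted p = 0.000646). The transcription factor genes Cebpd, Bcl3 and Cebpb rose by log2 changes of 2.11, 2.10 and 1.97, with Bcl3 at 0.192 FPKM in saline and tested only through CFA. In RVM none of the 13 tested passed, and Socs3 was at 0.849 ± 0.263 FPKM in saline and 3.41 ± 2.23 FPKM in CFA (adjusted p = 0.320). Of the 6 relatives of Steap4 and Emp1, Emp3 alone rose (log2 1.78, adjusted p = 0.0441), and their median was 0.21.

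**Figure D5:**
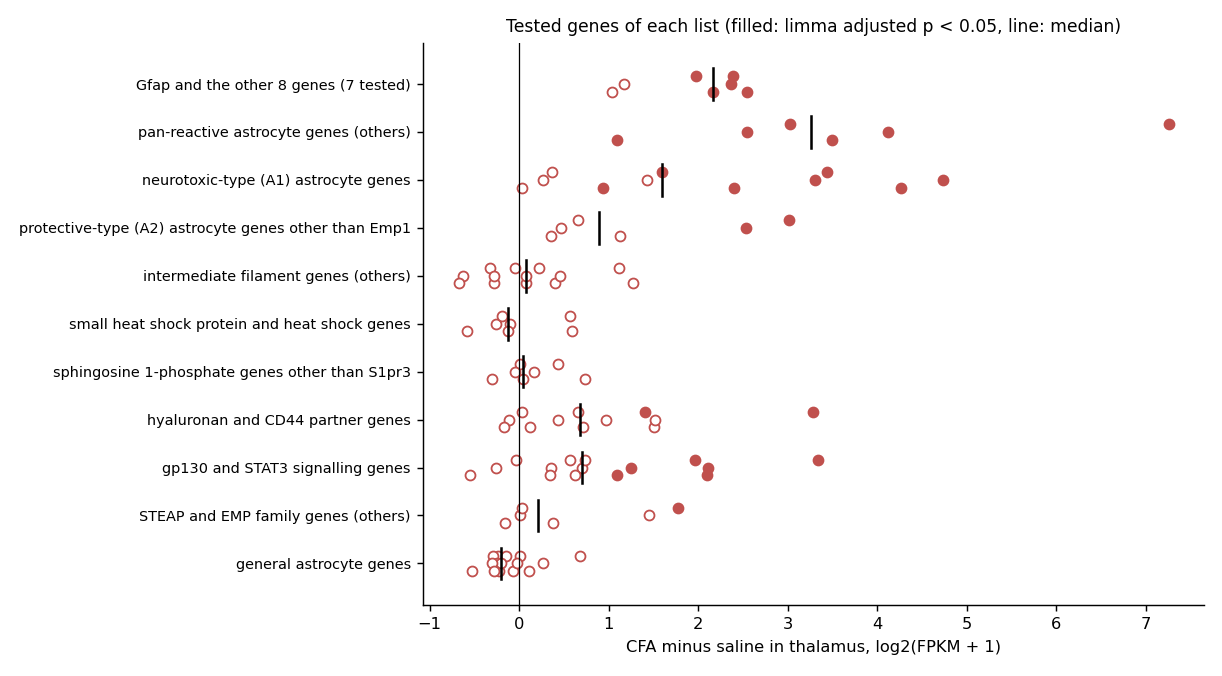
Log2 change between CFA and saline in thalamus (x axis, log2(FPKM + 1) scale) of each tested gene of 11 groups, filled where the limma adjusted p was below 0.05, with a line at the median of each group. The pan-reactive group lies furthest to the right with a median of 3.26, and the general astrocyte group lies at a median of -0.20. Some genes, among them Cxcl10, Osmr and Serpina3n of the pan-reactive group, were tested only through their CFA libraries.

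The members varied together inside groups as well. After subtraction of the 4 group means, Vim and Cd44 had a Pearson r of 0.92 over 12 libraries, Gfap and Vim 0.86, Gfap and Emp1 0.84 and Nes and Aspg 0.94. Steap4 had 0.05 with Gfap and -0.38 with Emp1. The points share libraries and scaling, and thalamus CFA library 1 is far from its group mean for 8 of the 9 genes, so these values describe the libraries. Among 13219 named genes, those most like Gfap over the 12 libraries were Litaf, Cbfb, Ppib, Syngr2, Triobp, Itpkb, Gnai3 and Fgfrl1, with r of 0.97 to 0.99. Litaf, for example, was at 18.5 FPKM in thalamus saline, 37.5 in thalamus CFA, 46.1 in RVM saline and 46.9 in RVM CFA. For deviations from the group means the list was Myo9b, Pbxip1, Necap2, Gask1b, Ybx1, Notch2, Litaf and Zup1 (r of 0.94 to 0.97). The genes most like Vim were Ptbp1, Zfp217, Cmtm6 and Il18bp over the libraries (r of 0.97 to 0.98) and Gask1b, Nudt6, Tnfrsf1a and Ptbp1 in the deviations (r of 0.95 to 0.97). Gask1b and Litaf were thus in 2 of these 4 lists, as was Ptbp1.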

How the data were processed

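RNA from thalamus and RVM was extracted with Trizol and made into libraries with an Illumina TruSeq kit, per the labels' protocols. One sentence of that text speaks of retinas. The authors deposited 1 table of FPKM values and gene lengths, per the file headers. Aligner, counter, build and annotation: not given in the sources used here. FPKM multiplied by length was a whole multiple of 1 step per library for 100% of values below 1000 steps (tolerance 0.01), taken as reads. The totals the authors divided by were 0.9335 to 1.168 times the recovered totals, highest in thalamus CFA, so a further scaling is part of the values.

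Members and lists were chosen with earlier results of these data known. Genes averaging 1 FPKM or more in the libraries compared (in each region for the interaction) were fitted on the log2(FPKM + 1) scale by limma 3.58.1 (R 4.3.3, empirical Bayes, trend) and called at a Benjamini-Hochberg adjusted p below 0.05. CFA and saline were compared within region with 6 libraries and 4 residual degrees of freedom, as were the saline groups. Log2 changes understate the change of low genes. All members are named, and in each list up to 4 called genes with the smallest p, otherwise the 2 smallest. Of 191 list symbols 186 matched, 1 through a synonym. Likeness to Gfap and Vim is Pearson's r of log2(FPKM + 1), for the 8 and 4 highest genes that average 1 FPKM or more. Fits were tested on simulated data. Replicates differed by more than sampling noise (chi-square per degree of freedom 7.83 to 66.3). Alternatives were a pseudocount of 0.1, no filter or 5 FPKM, 2 other scalings, limma-voom on the recovered reads, a replicate block, a single model of 12 libraries and libraries left out.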

Additional observations from a re-analysis of the deposited data

How the results depend on the processing

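In thalamus the count of members called was 5. It was 3 without a filter, 3 with a filter of 5 FPKM and 0 without CFA libraries 1 and 2, and 1 to 4 when each library was left out in turn. The count of all genes called there, 605, was 298 with a filter of 5 FPKM, 1932 in a single model of 12 libraries and 66 without CFA libraries 1 and 2, and 309 to 547 with 1 library left out. In RVM no member and no gene was called, 1 gene was without a filter, and leaving out 1 library gave 0 to 2 members and 0 to 484 genes. For the difference between regions 0 genes were called, 11 without a filter and 0 to 15 with 1 library left out, with 0 to 1 members. Between regions in saline 4 members were called, 2 with a filter of 5 FPKM, which tests fewer of them. Gfap in thalamus lost its call without a filter (adjusted p = 0.0686) and with a filter of 5 FPKM (0.0511), and Hspb1 without a filter (0.0540) and by limma-voom (0.0605). S1pr3 and Emp1 were called in the model of 12 libraries (0.0166 and 0.0473). The region difference of Vim, 0.04, was -0.14 with libraries rescaled to the same total, -0.051 by limma-voom and -0.24 to 0.41 with 1 library left out. That rescaling moved the median of all genes from -0.08 to 0.07 in thalamus and from 0.02 to -0.14 between regions. Same-numbered libraries did not deviate together in every pair (r of 0.36, 0.06 and 0.27 in thalamus, and -0.03, -0.01 and -0.01 in RVM). With the replicate block 1338 genes were called in thalamus, 755 higher and 583 lower, and 5 members. Depth limits Aspg (4 to 6 reads in thalamus saline) and Nes (26 to 109 reads per library). Causes of these shifts were not tested.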
